A study of Glycine max with 24 samples.

Results

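HSP90A1 and HSF-01 are a chaperone gene and a heat shock factor gene of soybean (Glycine max). They are 2 of the 6031 genes that have a probe set of their own in the probe-to-gene table, and all single-gene probe sets with their symbols were followed, 5 of the 37593 soybean probe sets tested. HSP90A1 had 3 (GmaAffx.21211.1.S1_at, GmaAffx.92386.1.S1_at and GmaAffx.21211.1.S1_s_at) and HSF-01 had 2 (Gma.5469.1.S1_at and Gma.2342.1.S1_at). The genes were chosen by their intensities, with the difference between Al plus Mg and Al alone at 72 h in view, so that difference is described here and carries no test. Earlier results of these data were known at that choice, so the tests at 12 h may not be independent of it. The third HSP90A1 probe set ends in s_at, a suffix that marks probes shared by several transcripts, so it may also read other members of the family.

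Transcripts were measured in the 1 cm tips of roots of hydroponic plants on Affymetrix soybean arrays. The genotypes were PI 416937, called PI here, and Young. Roots received 10 µM aluminium (Al) with magnesium (Mg) or 10 µM Al alone, for 72 or 12 h, which gave 8 groups of 3 arrays: PI with Al plus Mg and PI with Al alone, and Young with Al plus Mg and Young with Al alone, each at both times. Every group thus received Al. The labels give no Mg dose, and roots without Al were not analysed here. The labels record PI as sensitive to Al and Young as tolerant, while PI 416937 is usually described as an Al-tolerant soybean, and that entry was not used. Nothing in the labels says that replicates came from separate plants or cultures, so a p-value here speaks only of array-to-array spread, which may be technical.

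HSP90 proteins are abundant chaperones that use ATP to bring signalling proteins such as kinases and receptors into their active shape. Heat shock factors are transcription factors that bind heat shock elements in the promoters of chaperone genes, and in plants as in animals HSP90 can hold such factors inactive until misfolded proteins draw the chaperone away. Al stops the elongation of root tips and brings oxidative stress, and Mg relieves Al toxicity in soybean roots.

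Values are log2 intensities, and a difference of 1 is a doubling. All 5 probe sets lay above the background of the array in 24 of 24 arrays. Their lowest value was 7.41, while the background bound, the 99th percentile of the probe sets of other organisms on an array, was 2.86 to 3.27. Replicate arrays correlated at r = 0.981 to 0.994. The root list came down to the expansins EXP1, EXP2 and EXP4, all above background in 24 arrays, while 7 of 14 seed genes were at background in every array and KTI-2, KTI-3, CGS2, LEA-2 and LEA5 were above it in 24 arrays. The leaf genes CAB3, RCA11 and RCABETA were above background in 24 arrays, as were NOD33, LBD23 and ENOD40B of the nodule list, where LBD23 was caught by the start of its symbol alone.

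A pair of 12 h arrays stood apart, the Young array by its correlations and the PI array by a few genes. Replicate 3 of Young with Al alone correlated at a mean r of 0.982 with the other arrays of its group and at 0.991 with the Young arrays given Al plus Mg. In replicate 2 of PI with Al alone, the small heat shock protein gene HSP22.3 stood at 9.03, against 4.50 and 4.67 in the other replicates of that group. HSP22.5 and BAG6A, a co-chaperone gene of the BAG family, stood at 5.25 and 5.62 in that array and at 2.16 and 2.15, and 2.41 and 2.39, in the others. As a whole, that PI array correlated at r = 0.985 and 0.992 with the other replicates of its group, which were at 0.989 with each other. Values of HSP90A1 and HSF-01 from these groups are given with and without the array named.

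At 72 h both genes were lower with Mg in both genotypes, in every probe set and without overlap of arrays. In PI roots, HSP90A1 (GmaAffx.21211.1.S1_at) stood at 8.17, 8.33 and 8.15 with Al plus Mg, against 11.48, 11.77 and 11.26 with Al alone. The 3 arrays with Mg were close together and the lowest of all 24 for this probe set. The log2 difference was −3.29 ± 0.33 (SE), 9.75-fold lower, and the other HSP90A1 probe sets differed by −3.29 and −3.42. In Young roots the same probe set stood at 9.26, 9.19 and 9.70 with Al plus Mg, against 11.08, 11.44 and 11.54 with Al alone. The difference was −1.97 ± 0.33, 3.91-fold lower, with −2.11 and −2.01 for the other probe sets.

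HSF-01, the transcription factor gene, was likewise lower with Mg at 72 h. Gma.5469.1.S1_at stood at 9.45, 8.65 and 8.94 in PI roots with Al plus Mg, against 11.64, 11.40 and 12.09 with Al alone, a difference of −2.69 ± 0.35. In Young roots it stood at 9.36, 9.21 and 8.93 with Al plus Mg, against 12.38, 12.58 and 11.87 with Al alone, a difference of −3.11 ± 0.35. Gma.2342.1.S1_at differed more, by −3.87 ± 0.31 in PI and −3.32 ± 0.31 in Young, or 14.7-fold and 9.96-fold lower. The genotypes' Mg differences were −1.18 to −1.41 apart (PI minus Young) for the 3 HSP90A1 probe sets. For HSF-01 they were 0.42 and −0.56 apart, with no common sign. In bulk root tips, fewer cells of a type and less RNA per cell cannot be told apart.

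Of all probe sets tested, 33.7% passed in PI and 39.3% in Young for Mg at 72 h, with 13% and 16.3% lower. In PI 61.3% of those calls were higher with Mg, and 72.2% once array medians were set equal, which moved the median difference of all probe sets to 0.14, against 0.06. Arrays without overlap and lower with Mg were seen for 15% in PI and 19.9% in Young, beside 5 of 5 probe sets of both genes, which were chosen for this. Other readings moved with the same contrast. The distance between the 3′ and 5′ probe sets of the control cytochrome P450 was 4.12 ± 0.25 with Al plus Mg and 2.51 ± 0.36 with Al alone in PI, and 3.80 ± 0.16 with Al plus Mg and 2.26 ± 0.37 with Al alone in Young (SD, n = 3). The actin distance was 8.41 with Al plus Mg and 7.99 with Al alone in PI, and 8.41 and 7.88 in Young. Between 3′ and middle probe sets, cytochrome P450 gave 1.73 with Al plus Mg and 1.52 with Al alone in PI. In Young it gave 1.55 and 1.37. Actin gave 1.60 and 1.53 in PI, and 1.52 and 1.62 in Young, with no common sign. The summed intensity of the 3 expansins was 5126 to 5955 with Al plus Mg and 2121 to 2792 with Al alone in PI, and 4320 to 5174 with Al plus Mg and 990 to 1653 with Al alone in Young. For the 5 nodule genes it was 2484 to 2862 with Al plus Mg and 5050 to 8686 with Al alone in PI, and 2610 to 3955 with Al plus Mg and 9131 to 16023 with Al alone in Young. The sums follow EXP1 and NOD33, the brightest of each list, and other members went the other way: EXP4 averaged 4.44 with Al plus Mg and 5.19 with Al alone in PI, and 3.77 with Al plus Mg and 4.92 with Al alone in Young. ENOD93 averaged 5.90 with Al plus Mg and 3.97 with Al alone in PI, and ENOD40B 6.85 with Al plus Mg and 6.22 with Al alone in Young. The seed list summed to 37758 to 52088 with Al plus Mg and 28661 to 37380 with Al alone in PI, and to 48446 to 51090 with Al plus Mg and 29642 to 42787 with Al alone in Young. The part of these readings in the result was not tested.

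**Figure D1:**
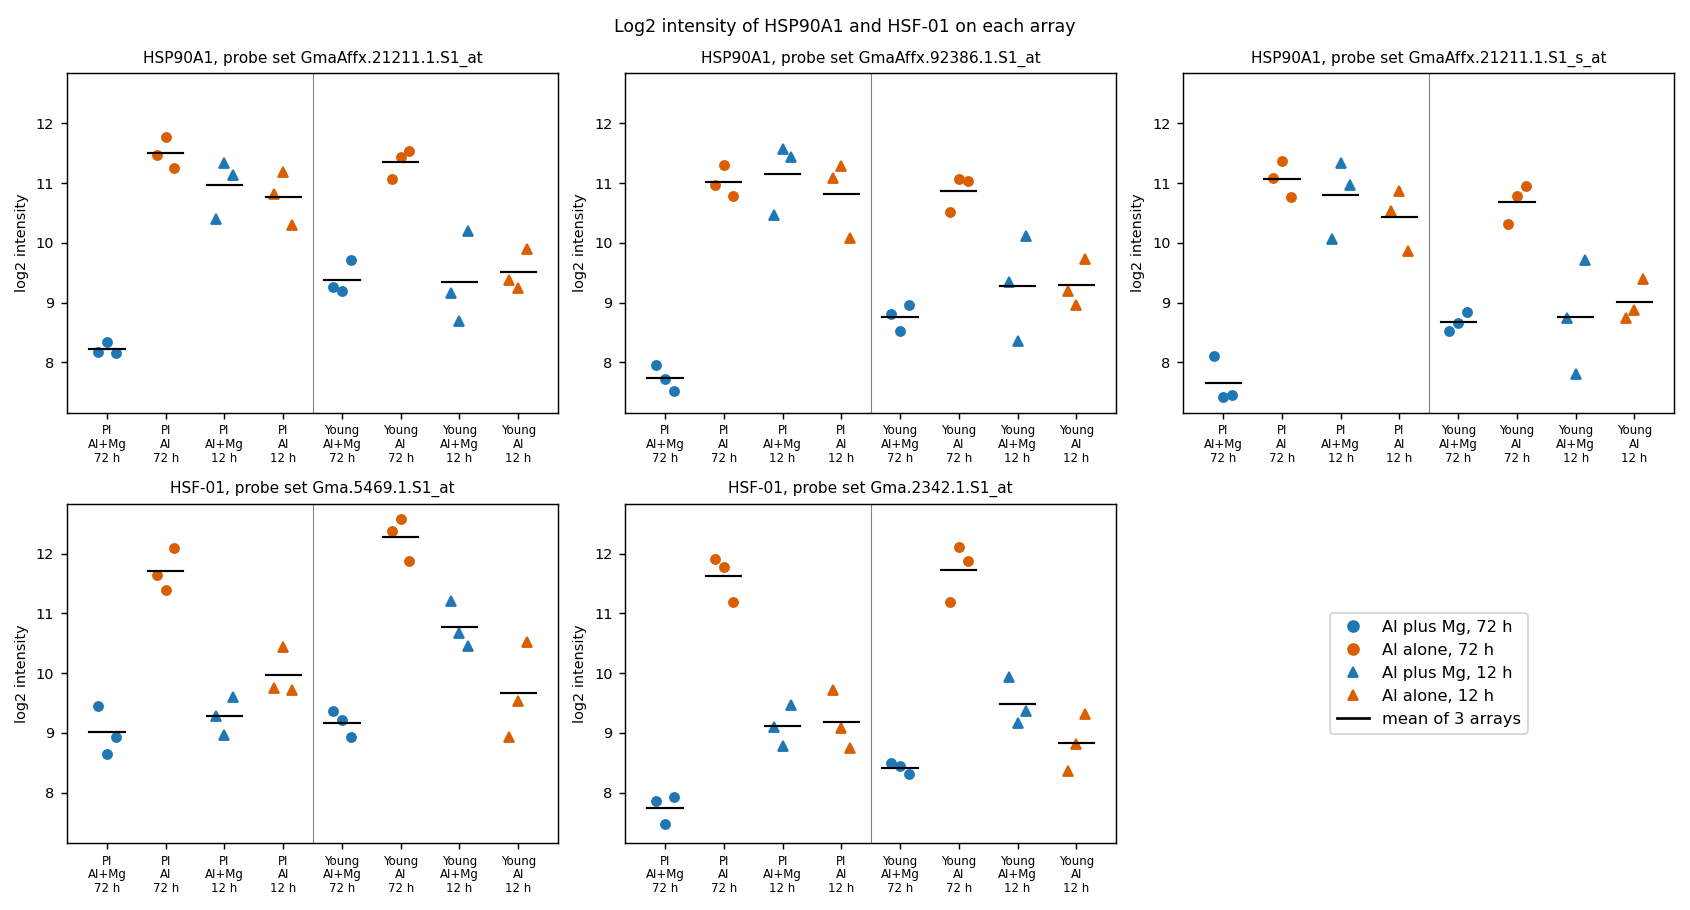
Log2 intensity of the 5 probe sets in each array (points) with the mean of each group of 3 arrays (bars), for Al plus Mg beside Al alone in each genotype and time. At 72 h the arrays with Mg lie below those with Al alone in every panel, and at 12 h most of them overlap.

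At 12 h, no probe set of either gene passed for Mg in either genotype (limma). In PI roots, HSP90A1 (GmaAffx.21211.1.S1_at) stood at 10.40, 11.34 and 11.14 with Al plus Mg, against 10.82, 11.19 and 10.29 with Al alone. The arrays overlapped, and the difference was 0.20 ± 0.33 (limma, adjusted p = 1.0). In Young roots it stood at 9.17, 8.69 and 10.20 with Al plus Mg, against 9.37, 9.25 and 9.89 with Al alone, a difference of −0.15 ± 0.33 (limma, adjusted p = 0.911). The other HSP90A1 probe sets differed by 0.34 and 0.37 in PI and by −0.02 and −0.25 in Young. Without replicate 2 of PI with Al alone the HSP90A1 differences in PI were 0.41 to 0.59, and without replicate 3 of Young with Al alone those in Young were −0.06 to 0.19. For Mg at 12 h, 0.0293% of all probe sets passed in each genotype, 11 of 37593, while 1412 in PI and 6396 in Young had an unadjusted p under 0.05.

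HSF-01 (Gma.5469.1.S1_at) had its 12 h arrays on opposite sides in the genotypes. In PI roots it stood at 9.27, 8.96 and 9.60 with Al plus Mg, against 9.75, 10.44 and 9.71 with Al alone. These arrays did not overlap, as for 5.21% of all probe sets in this direction, yet the difference of −0.69 ± 0.35 did not pass (limma, adjusted p = 1.0), and it was −0.45 without replicate 2 of Al alone. In Young roots it stood at 11.22, 10.67 and 10.46 with Al plus Mg, against 8.94, 9.53 and 10.51 with Al alone. The third array with Al alone, the one that stood apart, lay among those with Mg. The difference was 1.12 ± 0.35 (limma, adjusted p = 0.152), and without that array it was 1.55 (adjusted p = 0.0102), with 3117 probe sets passing in all. That array was singled out by its likeness to the arrays with Mg, so leaving it out favours a difference. The adjusted p-values without it are therefore no independent test of Mg. Gma.2342.1.S1_at differed by −0.07 in PI and 0.66 in Young (limma, adjusted p = 1.0 and 0.285), and by −0.12 in PI without replicate 2 and 0.91 in Young without replicate 3 of Al alone (adjusted p = 1.0 and 0.0928).

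A test of the difference between the genotypes' Mg effects at 12 h, added after the values had been seen, gave −1.81 ± 0.49 for HSF-01 (Gma.5469.1.S1_at; limma, adjusted p = 0.110), in a comparison where 0.0133% of all probe sets passed. Without replicate 3 of Young with Al alone it was −2.24 (adjusted p = 0.00795), at which 2614 probe sets passed in all, and without replicate 2 of PI with Al alone it was −1.57 (adjusted p = 0.224). As above, leaving out that Young array favours a difference, so the p-value without it is no independent test. Gma.2342.1.S1_at gave −0.73 (adjusted p = 0.420), −0.98 without that Young array and −0.78 without that PI array. The 3 HSP90A1 probe sets gave 0.35 to 0.62, with adjusted p of 0.645 to 0.834, and 0.14 to 0.43 without the Young array and 0.56 to 0.84 without the PI array.

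**Figure D2:**
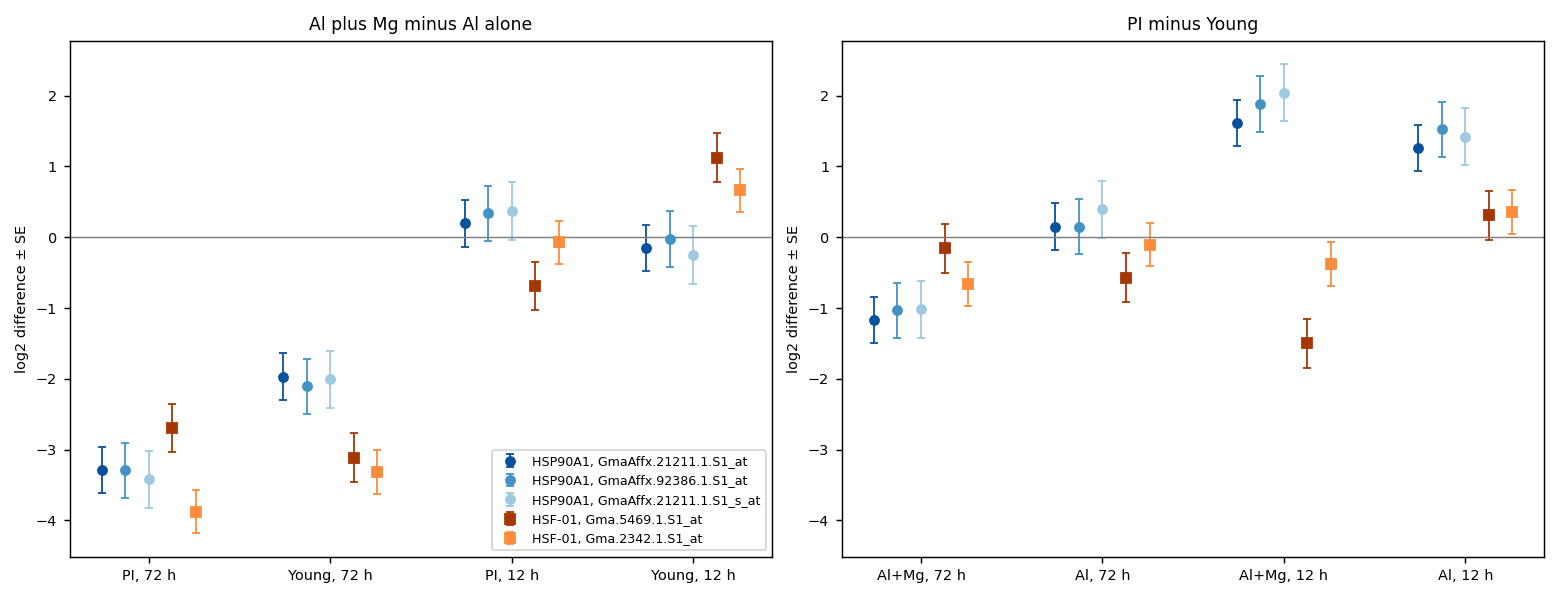
Log2 differences with their standard errors for the 5 probe sets, Al plus Mg minus Al alone in each genotype and time and PI minus Young in each treatment and time. HSP90A1 is 1.26 to 2.04 higher in PI at 12 h, and HSF-01 (Gma.5469.1.S1_at) is −1.50 in PI with Al plus Mg at 12 h.

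HSP90A1 was higher in PI than in Young at 12 h, in either treatment. Since the genes were chosen with earlier results of these data known, the p-values may overstate this difference. Under Al plus Mg, GmaAffx.21211.1.S1_at stood at 10.40, 11.34 and 11.14 in PI, against 9.17, 8.69 and 10.20 in Young. Every PI array lay above every Young array, as for 17.8% of all probe sets, and the difference was 1.61 ± 0.33, 3.06-fold higher (limma, adjusted p = 0.00427). GmaAffx.92386.1.S1_at differed by 1.88 ± 0.39 (adjusted p = 0.00487) and the s_at probe set by 2.04 ± 0.40 (adjusted p = 0.00357). So 3 of 3 passed higher in PI, where 6.02% of all probe sets did, and leaving out any array kept the call of GmaAffx.21211.1.S1_at. Fitted to the 6 arrays of the comparison alone none of the 3 passed (adjusted p = 0.134 to 0.135). The nodule list also differed here, with a summed intensity of 2095 to 3206 in PI and 5974 to 11385 in Young, as did the leaf list at 253 to 314 in PI and 370 to 575 in Young. Their part was not tested.

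With Al alone at 12 h, GmaAffx.21211.1.S1_at stood at 10.82, 11.19 and 10.29 in PI, against 9.37, 9.25 and 9.89 in Young. The arrays again did not overlap, as for 9.36% of all probe sets in this direction, and the difference was 1.26 ± 0.33 (limma, adjusted p = 0.0360). GmaAffx.92386.1.S1_at differed by 1.52 (adjusted p = 0.0336) and the s_at probe set by 1.42 (adjusted p = 0.0581). Thus 2 of 3 passed higher in PI, against 2.1% of all probe sets. Without replicate 2 of PI, in which HSP22.3 was high, the values were 1.05 and 1.29 for the probe sets that had passed, and neither passed (adjusted p = 0.156 and 0.144). The call of GmaAffx.21211.1.S1_at was also lost without replicate 1 of PI (1.24, adjusted p = 0.101), replicate 1 of Young (1.19, adjusted p = 0.116) and replicate 2 of Young (1.13, adjusted p = 0.143), and GmaAffx.92386.1.S1_at did not pass when any one of these 3 arrays was left out (1.36 to 1.47, adjusted p of 0.104 to 0.140). Without replicate 3 of Young, the array that stood apart, the s_at probe set passed (1.61, adjusted p = 0.0487) and the others kept their calls at 1.46 and 1.74. Fitted to the 6 arrays alone, the values that had passed did not (adjusted p = 0.164 and 0.191). In this treatment the nodule and leaf sums of the genotypes overlapped.

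HSF-01 was lower in PI at 12 h with Al plus Mg, in 1 of its 2 probe sets. Gma.5469.1.S1_at stood at 9.27, 8.96 and 9.60 in PI, against 11.22, 10.67 and 10.46 in Young. The arrays did not overlap, as for 14.6% of all probe sets in this direction, and the difference was −1.50 ± 0.35 (limma, adjusted p = 0.00907), with 7.54% of all probe sets called lower. Without replicate 1 of Young the difference was −1.28 (adjusted p = 0.0532). Gma.2342.1.S1_at was at 9.10, 8.77 and 9.46 in PI, against 9.93, 9.16 and 9.37 in Young, with overlap and a difference of −0.38 ± 0.31 (adjusted p = 0.476). With Al alone the HSF-01 probe sets differed by 0.31 and 0.35 (adjusted p = 0.789 and 0.684). These were 0.07 and 0.40 without replicate 2 of PI, and 0.74 and 0.60 without replicate 3 of Young. Fitted to the 6 arrays alone, the difference of Gma.5469.1.S1_at with Al plus Mg did not pass (adjusted p = 0.0624).

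The 72 h arrays entered the choice of the genes, so the genotype differences there are described without a test. Under Al plus Mg, HSP90A1 (GmaAffx.21211.1.S1_at) was lower in PI, at 8.17, 8.33 and 8.15 against 9.26, 9.19 and 9.70 in Young. The difference was −1.17 ± 0.33, and −1.27 to −1.01 with any of the 6 arrays left out. The other probe sets were at −1.03 and −1.02, and in 3 of 3 the arrays did not overlap, as for 13.6% of all probe sets in this direction. HSF-01 differed by −0.15, with overlap, and −0.66, without. With Al alone the HSP90A1 probe sets differed by 0.15 to 0.39 and those of HSF-01 by −0.57 and −0.11, all with overlap.

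The order of the group means differed between the genes. For HSP90A1 (GmaAffx.21211.1.S1_at) PI with Al alone at 72 h was highest at 11.50 ± 0.26 (SD, n = 3). It was followed by Young with Al alone at 72 h at 11.35 ± 0.24, PI with Al plus Mg at 12 h at 10.96 ± 0.49 and PI with Al alone at 12 h at 10.77 ± 0.45. Neighbours among these 4 overlapped. After a gap came Young with Al alone at 12 h at 9.50 ± 0.34, Young with Al plus Mg at 72 h at 9.38 ± 0.28 and Young with Al plus Mg at 12 h at 9.35 ± 0.77, again overlapping, and PI with Al plus Mg at 72 h stood alone at 8.22 ± 0.10. The other HSP90A1 probe sets had the same groups above and below the gap and the same lowest group, but within them the order differed. On GmaAffx.92386.1.S1_at PI with Al plus Mg at 12 h, at 11.15, came before PI with Al alone at 72 h, at 11.02, with overlap.

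For HSF-01 (Gma.5469.1.S1_at) the groups with Al alone at 72 h were at the top, Young at 12.28 ± 0.37 and PI at 11.71 ± 0.35, and overlapped. Young with Al plus Mg at 12 h came next at 10.78 ± 0.39, apart from its neighbours on both sides. PI with Al alone at 12 h at 9.97 ± 0.41, Young with Al alone at 12 h at 9.66 ± 0.80, PI with Al plus Mg at 12 h at 9.28 ± 0.32, Young with Al plus Mg at 72 h at 9.17 ± 0.22 and PI with Al plus Mg at 72 h at 9.01 ± 0.40 each overlapped the next. On Gma.2342.1.S1_at the top places were the same, but Young with Al plus Mg at 12 h, at 9.49 ± 0.40, overlapped PI with Al alone at 12 h, at 9.18 ± 0.50, and PI with Al plus Mg at 72 h lay alone at the bottom at 7.75 ± 0.24.

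The difference between times is described without a test, since it uses the 72 h arrays. In PI roots with Al plus Mg, HSP90A1 was lower at 72 h than at 12 h, by −2.75, −3.43 and −3.14 in its 3 probe sets and without overlap, as for 25.4% of all probe sets in this direction. In Young roots with Al plus Mg the arrays of the times overlapped, and the differences were 0.03, −0.51 and −0.08. With Al alone HSP90A1 differed by 0.20 to 0.74 between 72 h and 12 h in PI, with overlap in 2 of 3 probe sets, and the 0.20 of GmaAffx.92386.1.S1_at was −0.16 without replicate 3 at 12 h. In Young it was 1.58 to 1.85 higher at 72 h, without overlap. HSF-01 was higher at 72 h with Al alone, by 1.74 and 2.44 in PI and by 2.62 and 2.90 in Young, without overlap, as for 19.7% and 21.5% of all probe sets. With Mg present it differed by −0.27, with overlap, and −1.36 in PI, and in Young by −1.61 and −1.08, without overlap, as for 22.4% of all probe sets. Without replicate 2 of PI at 12 h the PI values with Al alone were 0.44 to 0.95 for HSP90A1 and 1.98 and 2.39 for HSF-01, and without replicate 3 of Young at 12 h the Young values were 1.79 to 2.04 and 3.05 and 3.15.

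Other readings moved with time as well. The leaf list had sums of 738 to 2218 over the groups at 72 h and of 253 to 575 over those at 12 h. The cytochrome P450 distance with Al plus Mg was 4.12 ± 0.25 at 72 h and 2.82 ± 0.34 at 12 h in PI, and 3.80 ± 0.16 at 72 h and 2.98 ± 0.32 at 12 h in Young (SD, n = 3). The expansin sum with Al plus Mg was 5126 to 5955 at 72 h and 2988 to 4227 at 12 h in PI, and 4320 to 5174 at 72 h and 2866 to 3001 at 12 h in Young. With Al alone it was 2121 to 2792 at 72 h and 2866 to 3673 at 12 h in PI, and 990 to 1653 at 72 h and 3225 to 4409 at 12 h in Young. With Al plus Mg the sum followed EXP1, and EXP2 and EXP4 went the other way. EXP2 averaged 6.53 at 72 h and 8.30 at 12 h in PI, and 7.08 and 8.67 in Young. EXP4 averaged 4.44 at 72 h and 6.31 at 12 h in PI, and 3.77 and 6.73 in Young. The nodule sum in Young was 2610 to 3955 at 72 h and 5974 to 11385 at 12 h with Al plus Mg, and 9131 to 16023 at 72 h and 2388 to 6886 at 12 h with Al alone. In PI the times overlapped, at 2484 to 2862 and 2095 to 3206 with Al plus Mg. With Al alone the PI sums were 5050 to 8686 at 72 h and 4726 to 5902 at 12 h. Some members went against the Young sums. ENOD40B averaged 6.85 at 72 h and 5.89 at 12 h with Al plus Mg. LBD23 averaged 9.96 at 72 h and 10.59 at 12 h with Al alone. The part of these readings was not tested.

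The genotypes' time differences, set against each other, are likewise given without a test. In roots given Al plus Mg, PI minus Young was −2.78 ± 0.46, −2.92 ± 0.55 and −3.06 ± 0.57 for the HSP90A1 probe sets, and 1.34 and −0.28 for those of HSF-01. With Al alone the HSP90A1 values were −1.03 to −1.37 and those of HSF-01 −0.88 and −0.46. Without replicate 3 of Young with Al alone at 12 h these were −1.22 to −1.59, and −1.31 and −0.71. Without replicate 2 of PI with Al alone at 12 h they were −0.81 to −1.14, and −0.65 and −0.51.

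**Figure D3:**
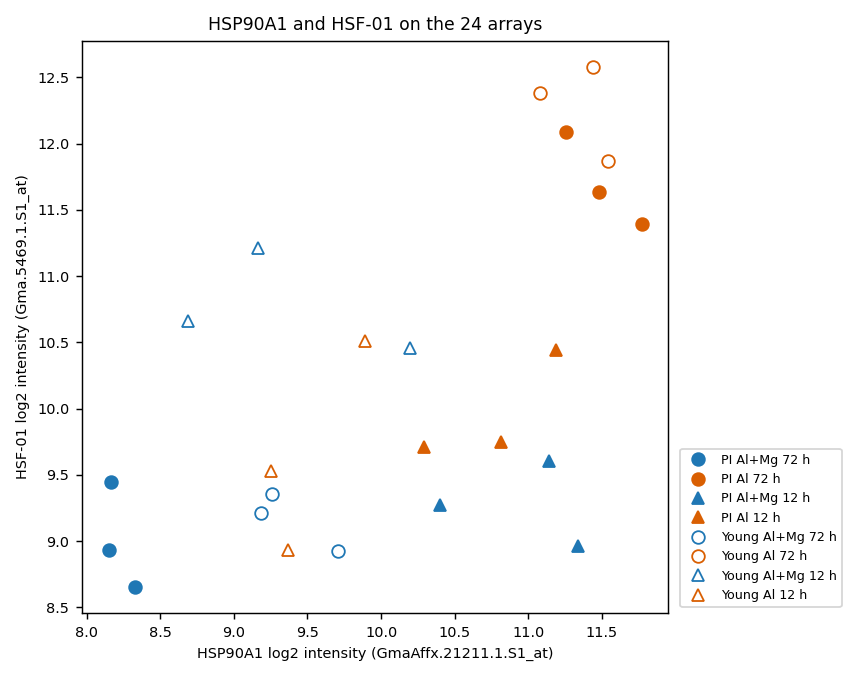
HSP90A1 (GmaAffx.21211.1.S1_at) against HSF-01 (Gma.5469.1.S1_at), both as log2 intensity, with 1 point for each of the 24 arrays, marked by genotype, treatment and time. Both genes are high with Al alone at 72 h, while at 12 h the PI arrays lie high in HSP90A1 and the Young arrays with Al plus Mg lie at 10.46 or above in HSF-01.

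The probe sets of each gene followed each other across the 8 group means. The HSP90A1 probe sets correlated at r = 0.974 to 0.992 over the group means and at 0.920 to 0.951 over the deviations of the 24 arrays from their group means. The pair of HSF-01 probe sets correlated at 0.956 over the means and at 0.418 over the deviations. Between the genes, the r over group means lay between 0.553 and 0.820. For the brightest probe set of each it was 0.654. Over the deviations that pair was at 0.00665, the lowest, and the other pairs between the genes were at 0.125 to 0.412. Points share the array and its normalization, and these values are descriptions.

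Other heat shock genes were followed through a list of 14 symbols, of which 13 were above background in some array and HSF-30 was in none. In Mg at 72 h, 4 of 14 passed lower in PI and 6 of 14 in Young (28.6% and 42.9%, against 13% and 16.3% of all probe sets), and none passed higher. The median difference was −0.31 in PI and −0.44 in Young, against 0.06 and 0.03 over all probe sets. At 12 h none of the 14 passed for Mg in either genotype (limma), and 0 in PI and 1 in Young had an unadjusted p under 0.05.

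Among the chaperones of that list, the small heat shock protein gene HSP23.9 averaged 10.06 ± 0.22 with Al plus Mg and 12.40 ± 0.14 with Al alone in PI at 72 h (SD, n = 3 each), a difference of −2.34 (limma, adjusted p = 2.40e-05). In Young it averaged 10.49 ± 0.42 with Al plus Mg and 12.70 ± 0.13 with Al alone, a difference of −2.21 (adjusted p = 3.08e-05). HSP17.5-E, another small heat shock protein gene, differed by −1.84 in PI and −1.61 in Young (adjusted p = 0.00726 and 0.0140), and by −1.40 in Young without replicate 2 of Al plus Mg (adjusted p = 0.0589). HSP90-1, a further gene of the HSP90 family, had 7 probe sets and none passed. Its brightest averaged 13.76 ± 0.24 with Al plus Mg and 14.13 ± 0.52 with Al alone in PI, and differed by −0.37 in PI and −0.21 in Young (adjusted p = 0.144 and 0.429). Without replicate 1 of PI with Al alone the PI difference was −0.67 and passed (adjusted p = 0.00174).

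Among the other heat shock factor genes, HSF-14 was lower with Mg in both genotypes, by −1.08 in PI and −1.51 in Young (limma, adjusted p = 2.73e-04 and 6.60e-06). HSF-35 was lower by −1.41 in PI (adjusted p = 1.02e-04) and stood at −0.50 in Young (adjusted p = 0.0843). HSF-10, HSF-15 and HSF-33 passed lower in Young, at −0.85, −0.66 and −0.38 (adjusted p = 4.94e-04, 0.00492 and 0.0347). In PI they stood at −0.38, −0.27 and 0.15 and did not pass. HSF-33 has a second probe set, at −0.39 in Young and −0.12 in PI, which did not pass (limma, adjusted p = 0.251 and 0.777). The call of HSF-33 was lost in 5 of 6 cases with an array left out, all but replicate 3 of Al alone (−0.41 to −0.31, adjusted p of 0.0501 to 0.139), and with array medians set equal (−0.34, adjusted p = 0.0685). Whether these genotypes' differences differ was not tested.

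Between genotypes, HSP17.5-E was higher in PI at 12 h, as HSP90A1 was. Under Al plus Mg it stood at 10.31, 10.75 and 11.13 in PI, against 9.06, 8.70 and 8.95 in Young, a difference of 1.82 (limma, adjusted p = 0.0204). That call was lost without replicate 2 or 3 of PI or replicate 1 or 2 of Young, with values of 1.62 to 1.90 and adjusted p of 0.0525 to 0.0652. With Al alone it stood at 11.25, 13.33 and 10.26 in PI, against 8.97, 9.33 and 8.55 in Young, a difference of 2.66 (adjusted p = 0.00345), and of 1.81 without the high replicate 2 of PI (adjusted p = 0.00221), but fitted to the 6 arrays alone it did not pass (adjusted p = 0.258). HSF-35 was lower in PI with Al plus Mg at 72 h (−1.69, adjusted p = 1.05e-04), with Al alone at 72 h (−0.78, adjusted p = 0.0276) and with Al plus Mg at 12 h (−0.89, adjusted p = 0.0144). Its call with Al alone was lost without replicate 1 or 2 of PI or replicate 1 or 3 of Young (−0.81 to −0.65, adjusted p of 0.0553 to 0.119), and that at 12 h without replicate 2 of PI (−0.79, adjusted p = 0.0698) or replicate 3 of Young (−0.63, adjusted p = 0.0591). Fitted to the 6 arrays alone, neither of these passed (adjusted p = 0.0722 and 0.134). HSF-35 was thus 1 of 14 genes lower in PI at 72 h, against 4.71% of all probe sets with Al plus Mg and 6.37% with Al alone. At 12 h with Al plus Mg it was 1 of 14 lower (7.14%), near the 7.54% of all probe sets. HSP17.5-E was 1 of 14 higher at 12 h, near the 6.02% of all probe sets with Al plus Mg, and against 2.1% with Al alone. No other gene of the list passed between genotypes.

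**Figure D4:**
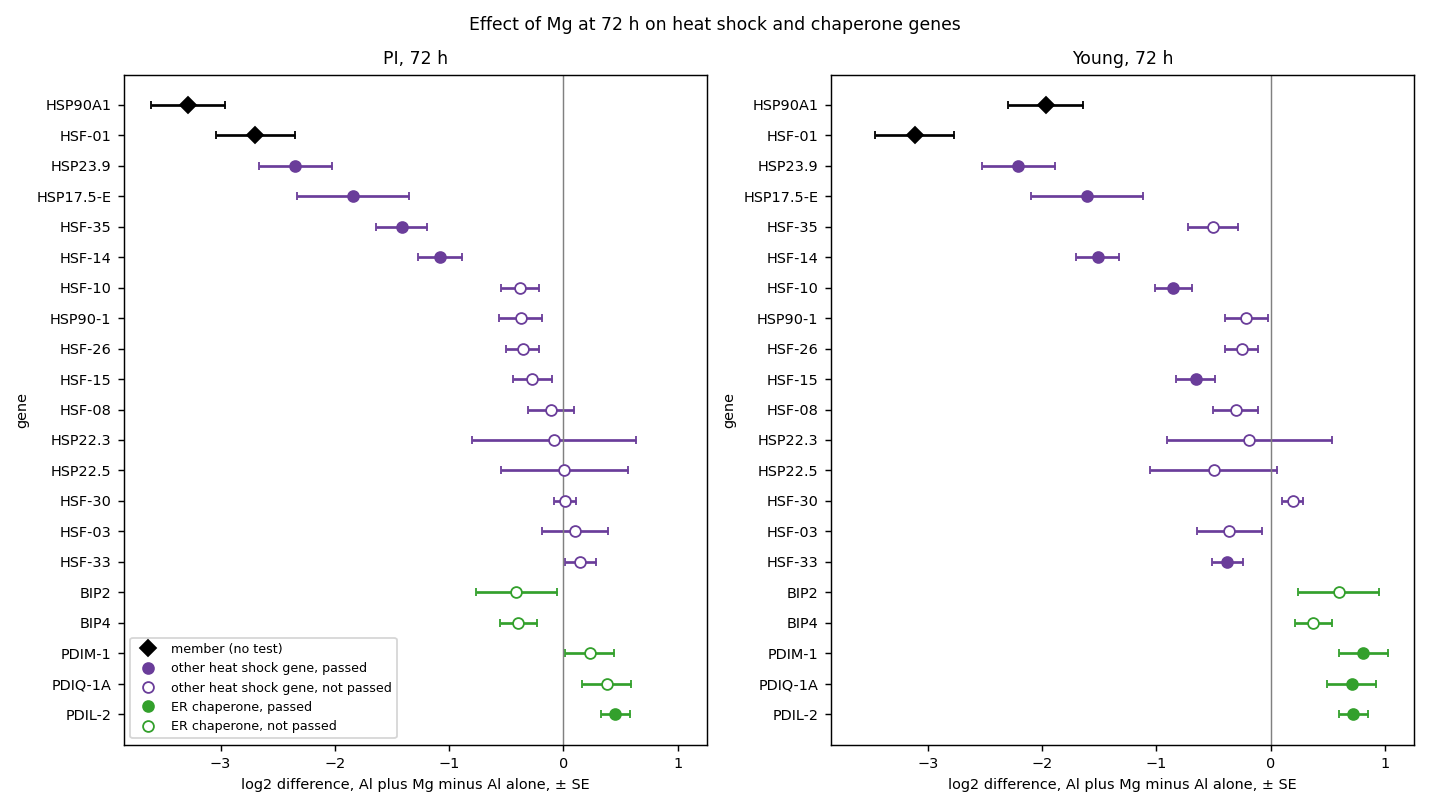
Log2 difference between Al plus Mg and Al alone at 72 h, with standard errors, for HSP90A1, HSF-01 and the other genes of the heat shock and endoplasmic reticulum lists, in PI and Young. Filled points passed, open points did not, and black diamonds carry no test. HSP23.9, at −2.34 and −2.21, is the lowest of the listed genes in both genotypes, and HSP90-1 lies at −0.37 and −0.21.

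No partner of HSP90 and no chaperone of the endoplasmic reticulum on the lists passed lower with Mg at 72 h, among 3 and 5 genes. With so few genes, this is near the 13% and 16.3% of all probe sets that passed lower in PI and Young. Of 3 co-chaperone genes, RAR1-1, whose Arabidopsis and barley relatives work with HSP90 and SGT1 on immune receptors, was higher with Mg in PI at 0.24 (limma, adjusted p = 0.0484), against 20.7% of all probe sets higher. That call held in 1 of 6 cases with an array left out, without replicate 3 of Al plus Mg (the others gave 0.18 to 0.26, adjusted p of 0.0604 to 0.191). In Young it stood at 0.17 (adjusted p = 0.156). These are values of the brightest RAR1-1 probe set. The other one passed higher in Young (0.29, limma, adjusted p = 0.0387) and not in PI (0.23, adjusted p = 0.108). The genotype in which RAR1-1 passed thus depended on the probe set. HOP1, which links HSP70 to HSP90, stood at 0.09 in PI and 0.27 in Young, and it and BAG6A did not pass. Of 5 genes of the endoplasmic reticulum list, 1 passed higher in PI, near the share of all probe sets, and 3 in Young, where 23.1% of all probe sets did. These were protein disulfide isomerase genes, PDIL-2 at 0.46 in PI and 0.72 in Young, and PDIM-1 and PDIQ-1A at 0.81 and 0.71 in Young (adjusted p = 0.00892, 1.69e-04, 0.00554 and 0.0140). Without replicate 1 of PI with Al alone none passed in PI. The call of PDIQ-1A was lost without replicate 2 of Young with Al alone (0.53, adjusted p = 0.0894) or replicate 1 of Young with Al plus Mg (0.65, adjusted p = 0.0516). The BiP genes BIP4 and BIP2, chaperones of the HSP70 family, stood at −0.39 and −0.41 in PI and at 0.37 and 0.60 in Young and did not pass.

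Of 869 other named genes above background, those most like HSP90A1 over the 8 group means were SCA1, a calcium ATPase gene, at r = 0.974, NDR1b at 0.967, 4CL3 at 0.951, MYB70 at 0.942 and IFS2 at 0.940. The Arabidopsis relative of NDR1b acts in disease resistance, 4CL3 is a 4-coumarate:CoA ligase of phenylpropanoid synthesis, MYB70 is a transcription factor, and IFS2 is an isoflavone synthase. An r over 0.9 was reached by 17 of the 869, or 1.96%. Those most like HSF-01 were ELIP, an early light-induced protein gene, at 0.989, the NAC transcription factor genes NAC2 at 0.977 and NAC26 at 0.967, SEO-F3, of the sieve element occlusion family, at 0.964 and HDL57 at 0.963. For HSF-01, 52 of the 869, or 5.98%, were over 0.9. The lists of 5 have no gene in common.

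**Figure D5:**
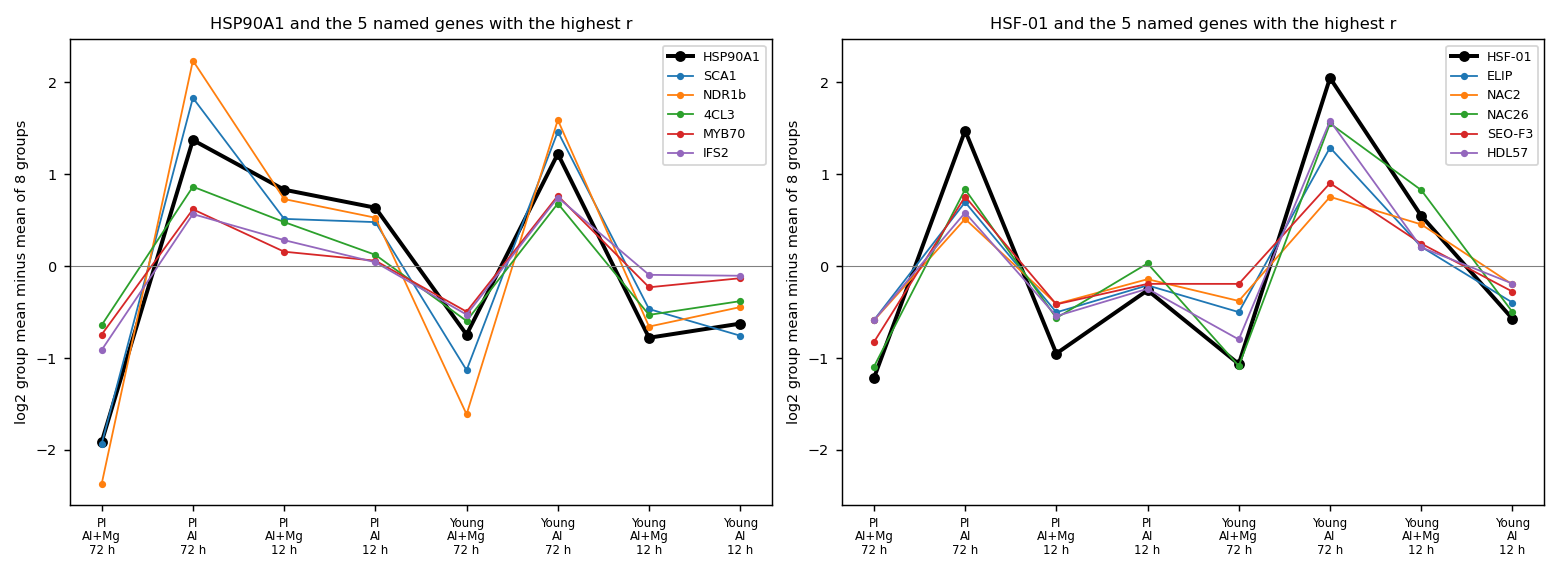
Group means, as log2 intensity, of HSP90A1 and HSF-01 (brightest probe sets) and of the 5 named genes most like each over the 8 groups, centred for each gene; the lines only guide the eye. Both sets of genes are highest with Al alone at 72 h. The genes like HSP90A1 are lowest in PI with Al plus Mg at 72 h, and so are those like HSF-01 except HDL57.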

How the data were processed

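The authors deposited linear intensities, a single value per probe set in every array. How these were background-corrected, summarised and normalized is not given in the sources used here. No further normalization was applied: values were floored at 1 and put on the log2 scale. RNA was labelled from an oligo-dT primer, per the labels' protocols. Gene names came from the platform annotation, updated through a table for assembly Glycine_max_v4.0 used for names only (8652 of 8677 single-gene probe sets matched by gene ID, 0 symbols changed). No coordinates or sequences are given.

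A limma 3.58.1 model in R 4.3.3 held a mean for each of 8 groups over 24 arrays (16 residual degrees of freedom). Calls needed an adjusted p (Benjamini-Hochberg) under 0.05 over the 37593 whose IDs begin with Gma. The bound used 23442 probe sets of other prefixes, and their 95th percentile of means, 2.40, was the signal filter. Members, lists and tests were chosen with earlier results of these data known. Genotype differences of both genes at 72 h had been planned as tests and are given without them, since the 72 h arrays entered the choice. Each gene was represented by its brightest probe set. Listed genes were named where they passed for Mg at 72 h, at most the 6 of largest difference, besides the 5 most like each gene. HSP90-1, HSF-33, the genes high in 1 array and the genes that did not pass were named after their values were seen. Marker lists were fixed by the starts of symbols.

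Same-numbered arrays of different groups deviated together at a median r of −0.026 (−0.428 to 0.410), so numbers were not taken to pair arrays. The alternatives tried were quantile normalization or equal array medians, the signal filter, inclusion of all but control probe sets, robust variance with a trend, a fit to just the arrays compared, the replicate block, an offset of 32, values raised to the bound, and each array left out. Tested on simulated data for Mg at 12 h in PI (37593 probe sets), the procedure recovered 35.8% of 67 changes of 0.5 on the log2 scale, 62.7% of 67 of 1 and 86.4% of 66 of 2, with 5 false calls. Those changes were placed on probe sets drawn at random, so the rates are not rates for the 5 probe sets of these genes. The simulated noise was independent between probe sets and many changes were planted together, while the real comparison had 11 calls. The rates may thus overstate what the real test could find. The pooled SDs of these 5 were 0.39 to 0.51. The number of arrays limits the precision.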

Additional observations from a re-analysis of the deposited data

How the results depend on the processing

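In the tested comparisons the 5 probe sets kept their direction and their side of the threshold in 214 of 225 values from alternatives other than leaving out an array, and in 156 of 180 with an array left out. Most of these results had not passed, and such a result keeps its side by not passing again. The fit to just the arrays compared ended every call of these probe sets. The values given without a test kept their sign in 801 of 810, those for Mg at 72 h throughout. For HSP90A1 (GmaAffx.21211.1.S1_at), the genotype difference with Al alone at 12 h did not pass with all probe sets but controls (1.26, adjusted p = 0.0645), with the arrays of the comparison only (1.26, adjusted p = 0.164) or in 4 of 6 cases with an array left out (1.05 to 1.24, and 1.05 to 1.497 over all 6). With Al plus Mg at 12 h the arrays of the comparison only gave 1.61 (adjusted p = 0.135). For HSF-01 (Gma.5469.1.S1_at), the genotype difference with Al plus Mg at 12 h was −1.50 (adjusted p = 0.0624) with the arrays of the comparison only and −1.66 to −1.28 with an array left out. Its Mg difference in Young at 12 h ranged over 0.76 to 1.55 and the genotype by Mg value over −2.24 to −1.45. These alternatives use fewer arrays or test more probe sets. The fit to fewer arrays also takes its spread from those groups alone. For GmaAffx.21211.1.S1_at the SDs were 0.34 to 0.77 in the 12 h groups and 0.10 to 0.28 in those at 72 h. The spread shared by all 8 groups may thus make the p-values of HSP90A1 at 12 h too small.

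The replicate block ended the call of GmaAffx.92386.1.S1_at for genotype with Al alone at 12 h (1.52, adjusted p = 0.0522) and no other call of these probe sets. With it, 5 probe sets in PI and 6 in Young passed for Mg at 12 h. Leaving out an array turned the sign of values that had not passed. For Mg at 12 h in PI the values ranged over −0.040 to 0.48 (GmaAffx.21211.1.S1_at), −0.029 to 0.68 (GmaAffx.92386.1.S1_at) and −0.29 to 0.20 (Gma.2342.1.S1_at). For Mg at 12 h in Young they ranged over −0.58 to 0.18 (GmaAffx.21211.1.S1_at), −0.44 to 0.43 (GmaAffx.92386.1.S1_at) and −0.73 to 0.22 (GmaAffx.21211.1.S1_s_at). For genotype with Al alone at 12 h they ranged over −0.051 to 0.74 (Gma.5469.1.S1_at). For genotype by Mg at 12 h they ranged over −0.094 to 0.78 (GmaAffx.92386.1.S1_at). Of the values without a test, the genotype difference turned its sign with Al plus Mg at 72 h (−0.37 to 0.025, Gma.5469.1.S1_at) and with Al alone at 72 h (−0.026 to 0.27, GmaAffx.92386.1.S1_at, and −0.38 to 0.11, Gma.2342.1.S1_at). So did the time difference with Al alone in PI (−0.16 to 0.44, GmaAffx.92386.1.S1_at) and with Al plus Mg in Young (−0.30 to 0.46, GmaAffx.21211.1.S1_at, and −0.55 to 0.40, GmaAffx.21211.1.S1_s_at).

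The endoplasmic reticulum count in PI was 0 with the arrays of the comparison only and 0 to 1 with an array left out. Probe sets passing for Mg at 12 h numbered 11 in PI (0 to 24 over the alternatives) and 11 in Young (0 to 3117). For genotype they numbered 1584 with Al alone at 12 h (365 to 2006), 5099 with Al plus Mg at 12 h (1119 to 5188), 4737 with Al alone at 72 h (1457 to 5013) and 3696 with Al plus Mg at 72 h (1327 to 10597). The genotype by Mg count was 5 (1 to 2614), and the Mg count at 72 h in PI 12685 (8007 to 19811). With 3 arrays a group and simulated recovery of 35.8% for changes of 0.5 in Mg at 12 h in PI, small differences can be missed. Larger ones can fall short too. For Mg at 12 h in Young, HSF-01 (Gma.5469.1.S1_at) at 1.12 ± 0.35 did not pass (limma, adjusted p = 0.152).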
